A study of Equus caballus with 6 samples.

Results

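SOD1, GPX1 and FTL are 2 antioxidant enzymes and the light chain of ferritin, and they were examined here in circulating white cells of 3 warmblood horses before and after exercise. Members were taken as the non-control probes whose RefSeq transcript belongs to 1 of these 3 genes. This gave 4 probes (1 for SOD1, 2 for GPX1 and 1 for FTL) among 43603 non-control probes, and 3 genes among 829 that could be named by a gene symbol. All 4 member probes passed the filter on dim probes.

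The animals were healthy neutered males, numbered 1, 2 and 4 in the sample titles and aged 11, 7 and 15 years in the sample labels, while the design text gives ages between 9 and 17 years. Each horse gave 1 sample of buffy coat leukocytes before exercise and 1 after it, so that each group held 3 arrays and the horse number pairs them. The labels of the samples after exercise name 60 min, whereas the protocol has both samples taken directly around the exercise, and the type and length of the exercise are not given in the sources used here. The buffy coat is the white-cell layer of centrifuged blood, taken here with a pipette and not sorted, so that platelets and red cells can be carried along. All 23 leukocyte marker genes with a probe (neutrophil, monocyte, T, B, NK and granulocyte genes) were well above background on all 6 arrays.

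Active leukocytes release superoxide through their NADPH oxidase, and mitochondria of any cell leak it. SOD1, the cytosolic copper and zinc superoxide dismutase, turns superoxide into hydrogen peroxide. GPX1, a selenium-containing glutathione peroxidase, reduces that peroxide to water. FTL joins the ferritin heavy chain FTH1 in the hollow shell that stores iron, and stored iron is kept from reacting with peroxide to form hydroxyl radicals. All 3 proteins are also known constituents of maturing red cells.

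The 6 arrays differed in brightness more than in detection. Of the non-control spots, 64.1% to 69.4% passed the background mark and none was saturated, and the 75th percentile of the processed signal ran from 1124 on the horse 4 array after exercise to 2536 on the horse 2 array before exercise. Slide 1 carried 4 arrays, namely all 3 after exercise and the horse 4 array before exercise, and slide 2 carried the arrays of horses 1 and 2 before exercise. Slides were also scanned at different times. Levels below are log2 processed signals minus the 75th percentile of the array, so a difference of 1 is a doubling, and the levels of different probes are not set against each other. In these bulk samples, fewer cells of a type and less RNA per cell cannot be told apart.

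After exercise all 3 genes had higher mean levels, and each was higher in 3 of 3 horses on every one of its probes. The mean difference was 0.31 for SOD1, 0.47 for the brighter probe of GPX1 and 0.24 for FTL, on the log2 scale. None of the 3 passed the test in limma, and of all 29570 probes tested 0 passed (0.00%), with or without the horse as a block. At an unadjusted p under 0.05 limma counted 855 probes without the block and 1798 with it, which was 2.89% and 6.08% of those tested. Higher values in all 3 horses were frequent on these arrays: 17.3% of 29351 probes with a value on every array showed them.

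**Figure D1:**
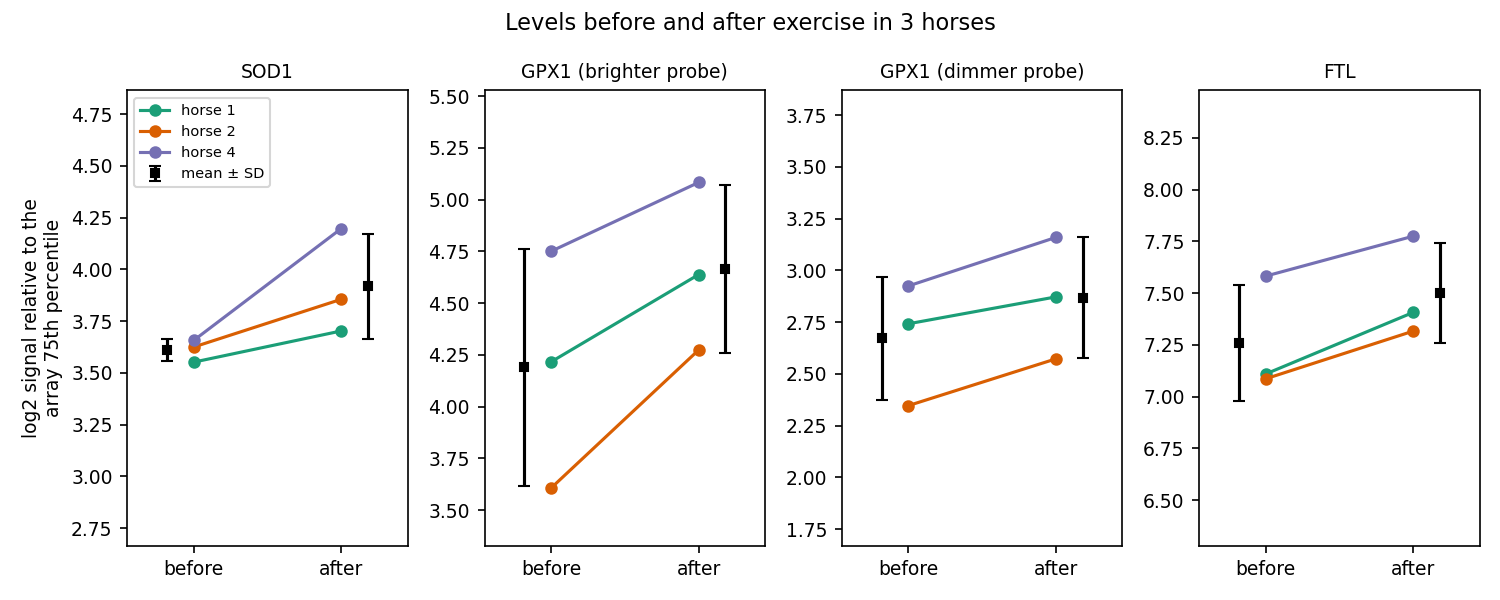
Log2 signal relative to the 75th percentile of the array (vertical axes, each spanning the same range) before and after exercise for the 4 member probes. Coloured lines join the 2 samples of a horse, and black squares with bars are the mean ± SD of 3 arrays. Every line climbs, while the groups of 3 overlap for GPX1 and FTL and lie apart for SOD1.

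SOD1 was measured by a single probe, A_69_P000916, designed on NM_001081826. Before exercise its level was 3.55 in horse 1, 3.62 in horse 2 and 3.66 in horse 4. After exercise it was 3.70, 3.86 and 4.20 in the same order. The 3 samples before exercise lay close together, the horse 4 sample after exercise stood highest, and no sample after exercise fell below any before it. The mean was 3.61 ± 0.05 (SD, n = 3) before and 3.92 ± 0.25 (SD, n = 3) after exercise. Within horses the differences were 0.15, 0.23 and 0.54 for horses 1, 2 and 4, so that horse 4 contributed most. In limma the change was 0.31 (SE 0.20, adjusted p = 0.999), a 1.24-fold difference with a 95% interval from 0.89-fold to 1.72-fold.

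The separation of the SOD1 groups was narrow. The lowest value after exercise (horse 1) exceeded the highest before it (horse 4) by 0.05. For comparison, 24 probes printed in 5 spots and well above background on all 6 arrays had a median SD of 0.07 between the spots of 1 array. Groups that did not overlap in this direction were found in 3.51% of all probes and in 6.71% of 2935 especially bright probes, the class to which SOD1 belongs. An exact two-sided permutation test of the 3 against 3 arrays gave p = 0.10 for SOD1, the smallest value that 20 arrangements allow. Without the horse 4 array after exercise the SOD1 change was 0.17, without both horse 4 arrays 0.19, and with array weights 0.15.

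GPX1 was measured by 2 probes on NM_001166479, A_69_P056031 and the dimmer A_69_P129656. On the brighter probe its level before exercise was 4.22 in horse 1, 3.61 in horse 2 and 4.75 in horse 4. After exercise the levels were 4.64, 4.27 and 5.08. Horse 4 was highest and horse 2 lowest at both times, and the groups overlapped, since the horse 4 sample before exercise exceeded those of horses 1 and 2 after it. The means were 4.19 ± 0.57 before and 4.66 ± 0.41 after (SD, n = 3 each). The differences within horses were 0.42, 0.67 and 0.33 in horses 1, 2 and 4, a narrower range than the levels of the animals covered. The change of 0.47 had an SE of 0.35 in limma without the block (adjusted p = 0.999), a 1.39-fold difference with a 95% interval from 0.78-fold to 2.48-fold.

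With the horse as a block the SE of GPX1 became 0.16 and the 95% interval ran from 1.03-fold to 1.87-fold, with an unadjusted limma p of 0.036. It did not pass over all probes (limma, adjusted p = 0.75). Over all 22 alternatives the adjusted p of GPX1 ran from 0.19 to 0.999999. Higher values at an unadjusted p under 0.05 in the fit with the horse as a block were found for 2.08% of all probes. The share among especially bright probes, the class of the brighter GPX1 probe, was not computed. The corresponding unadjusted p-values with the block were 0.13 for SOD1 and 0.17 for FTL.

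The dimmer GPX1 probe had a difference of the same direction and smaller size. Its level was 2.74, 2.35 and 2.92 before and 2.87, 2.57 and 3.16 after exercise in horses 1, 2 and 4. Horse 4 was again highest and horse 2 lowest at both times. The differences within horses were 0.13, 0.23 and 0.23, with a limma change of 0.20 (SE 0.25, adjusted p = 0.999), a 1.15-fold difference. Across the 6 arrays the probes had r = 0.97, a value that mainly describes the order of the horses. The mean of both probes gave a GPX1 change of 0.34. The size of the GPX1 difference thus depended on the probe, by 0.47 against 0.20, while its direction did not under the scaling used.

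FTL was measured by 1 probe, A_69_P001036, on NM_001114540. Its level before exercise was 7.11 in horse 1, 7.09 in horse 2 and 7.58 in horse 4, and after exercise it was 7.41, 7.32 and 7.78. Horse 4 stood above the other horses at both times, so that its sample before exercise exceeded the samples of horses 1 and 2 after exercise. The mean was 7.26 ± 0.28 before and 7.50 ± 0.24 after exercise (SD, n = 3 each). The differences within horses were 0.30, 0.23 and 0.19 in horses 1, 2 and 4, the narrowest spread among the brightest probes of the 3 genes (SD 0.05, against 0.21 for SOD1 and 0.17 for GPX1). In limma the change was 0.24 (SE 0.23, adjusted p = 0.999), a 1.18-fold difference with a 95% interval from 0.81-fold to 1.73-fold. An exact two-sided permutation test over the 6 arrays gave p = 0.30 for FTL and 0.40 for the brighter GPX1 probe. An exact sign-flip test over the 3 horses gave 0.25 for every member probe, the smallest value it can give with 3 pairs.

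By its brightest probe and under the scaling used, each gene had its own order of differences among the horses. SOD1 differed most in horse 4 and least in horse 1, the brighter GPX1 probe most in horse 2 and least in horse 4, and FTL most in horse 1 and least in horse 4. These orders depended on probe and processing. The dimmer GPX1 probe had the same order as SOD1 (0.130, 0.226 and 0.235 in horses 1, 2 and 4). With normexp background correction FTL differed most in horse 2 (0.41) and SOD1 least there (0.26). With 1 pair per horse, a difference in response between horses could not be tested. Only horse 4 had both samples on the same slide, so horse and slide cannot be told apart in these orders. All 24 member spots were free of saturation and of the spot flags of the scanner software, which put the error of each signal at 10% (0.14 on the log2 scale). The flags of the local background were set on 12 of the 24, namely on all 6 arrays for FTL and for the brighter GPX1 probe.

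Slide and exercise overlap in this design, and this bears on all 3 genes. In horses 1 and 2 the sample before exercise lay on slide 2 and the sample after on slide 1, so exercise and slide cannot be told apart in those 2 pairs. Horse 4 had both samples on slide 1, and there the differences were 0.54 for SOD1, 0.33 for GPX1 and 0.19 for FTL. Their sign depended on the scaling, and the 75th percentile was 1753 before and 1124 after exercise in this horse. The unscaled signals of horse 4 were lower after exercise, at 22107 and then 20625 for SOD1 and 335953 and then 246305 for FTL. The brighter GPX1 probe had 47183 and then 38114. In horses 1 and 2 the unscaled signals of every member probe were higher after exercise. The 75th percentile there was 1797 and then 1952 in horse 1, and 2536 and then 2246 in horse 2. When the 3 arrays after exercise were set against the horse 4 array before it, all on slide 1, the change was 0.26 (SE 0.28) for SOD1, -0.085 (SE 0.37) for GPX1 and -0.083 (SE 0.27) for FTL. In this comparison the samples of horses 1 and 2 after exercise are set against another animal. Before exercise GPX1 and FTL were higher in horse 4, on slide 1, than in horses 1 and 2, on slide 2, so that animal and slide cannot be told apart in those levels. The fit with slide as a block gave the same 3 changes. For the dimmer GPX1 probe the value was -0.057 (SE 0.30).

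**Figure D2:**
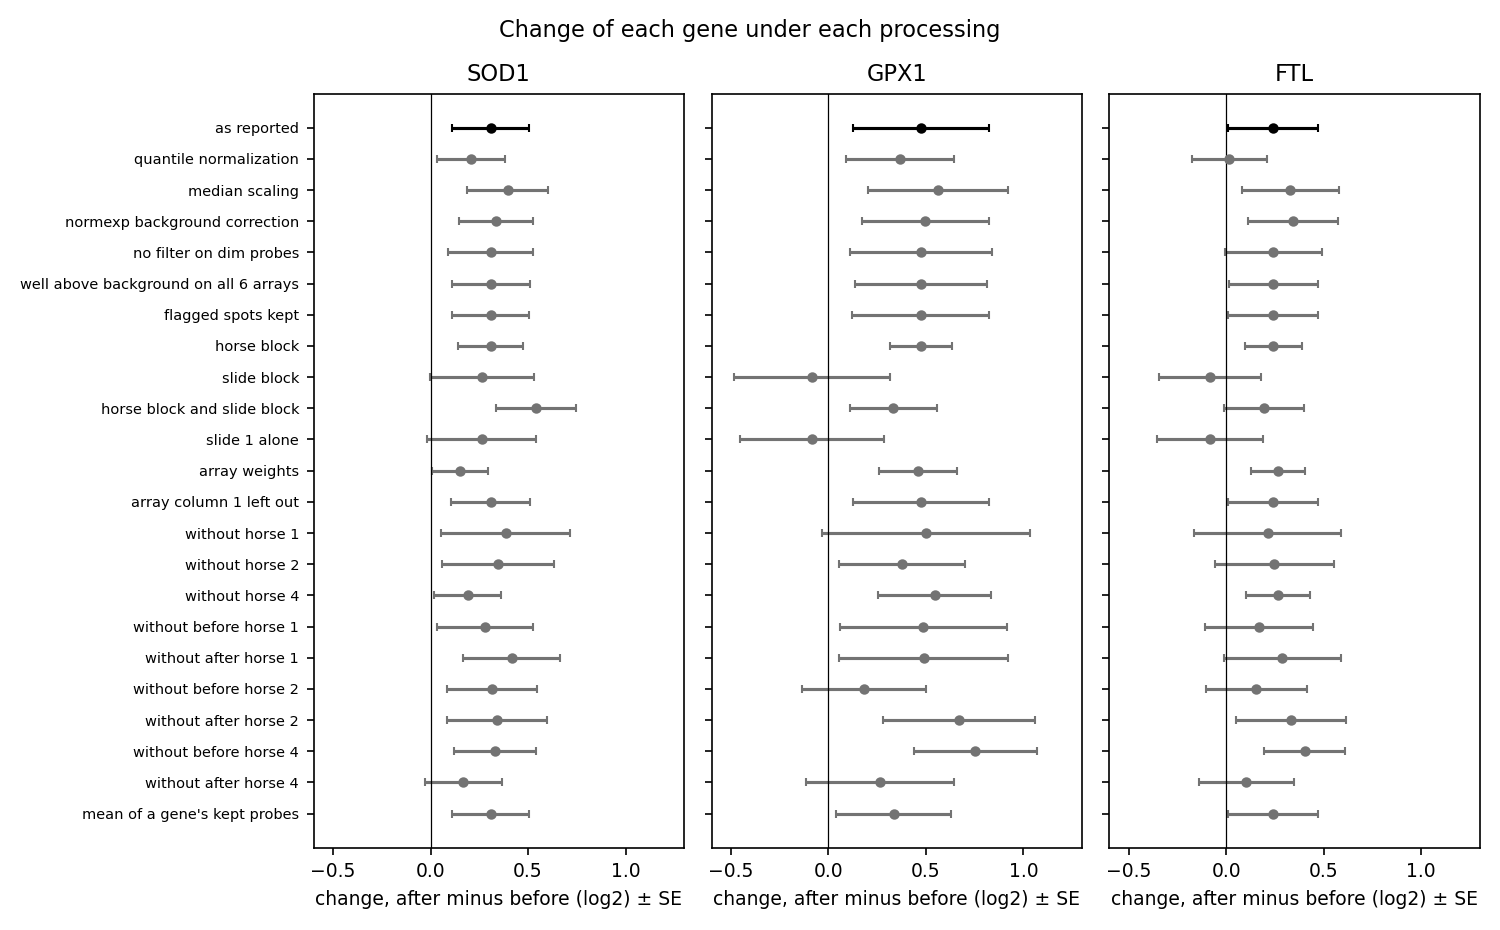
Change after exercise (log2, horizontal axes) with its SE for SOD1, GPX1 and FTL under each processing (vertical axis), with the reported fit in black. GPX1 and FTL cross to -0.085 and -0.083 when slide is a block or slide 1 stands alone, and FTL sits at 0.01 after quantile normalization.

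Leaving out single arrays changed the sizes of the GPX1 and FTL differences and not their direction. GPX1 had 0.18 without the horse 2 array before exercise and 0.27 without the horse 4 array after it, and 0.75 without the horse 4 array before exercise. For FTL the values without those arrays were 0.15, 0.10 and 0.40 in the same order.

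The members lie among bright probes, and bright probes as a class were higher after exercise. The 29351 probes with a value on every array were divided into 10 equal classes by their mean signal. The probes of SOD1 and FTL and the brighter GPX1 probe fell in the brightest class, and the dimmer GPX1 probe in the next. In the brightest class 38.2% of 2935 probes were higher in all 3 horses, and their median change was 0.17 (quartiles 0.04 and 0.28). In the dimmest class the share was 8.96% and the median change -0.10. The median change of all probes was 0.04. FTL (0.24) lay inside the quartiles of its class, SOD1 (0.31) just above the upper one, and the brighter GPX1 probe (0.47) further above. The dimmer GPX1 probe (0.20) lay inside the quartiles of the next class (-0.03 and 0.23), where 28.8% of probes were higher in all 3 horses. For being higher in all 3 horses, the members therefore stand against a share of 38.2% and not 17.3%.

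Quantile normalization, which forces the same distribution on every array, removed most of this gradient. The share of probes higher in all 3 horses became 21.4% in the brightest class and 16.5% over all probes. SOD1 then had a change of 0.21, with 0.12, 0.15 and 0.35 in horses 1, 2 and 4, and its 2 groups overlapped. The brighter GPX1 probe had 0.37, with 0.40, 0.59 and 0.11, and remained higher in all 3 horses. FTL had 0.01, with 0.33, 0.07 and -0.36, and was lower after exercise in horse 4. Normexp background correction kept all 3 genes higher in 3 of 3 horses, with mean changes of 0.34 for SOD1, 0.50 for GPX1 and 0.34 for FTL, and left 36.5% of the brightest class higher in all 3 horses (20.0% of all probes). Scaling to the median adds the same amount to every probe of an array. The median change of all probes became 0.13, and those of SOD1, GPX1 and FTL became 0.40, 0.56 and 0.33. Higher values in all 3 horses were then found in 25.7% of all probes and in 56.7% of the brightest class.

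**Figure D3:**
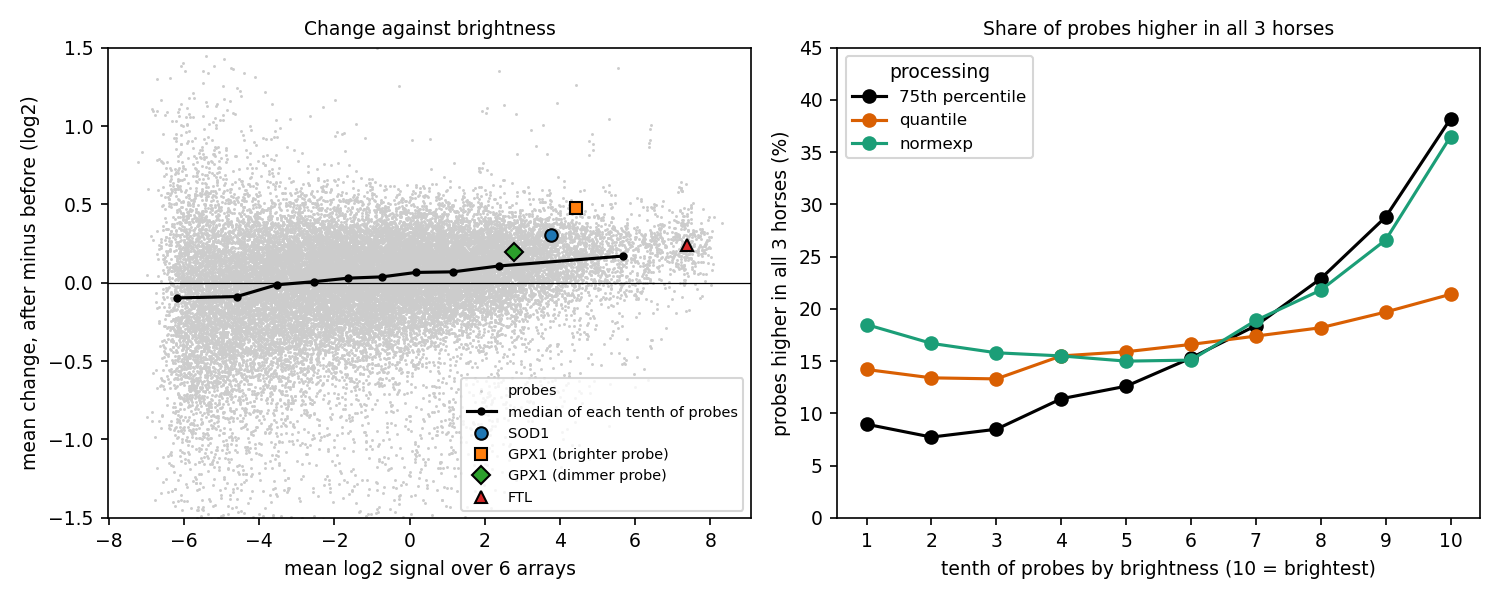
Left, mean change of the 3 horses (log2, axis limited to 1.5 in each direction) against mean log2 signal for each probe in grey, with the median of each of 10 brightness classes as a black line and the 4 member probes as coloured symbols. Right, share of probes higher after exercise in all 3 horses by brightness class (10 is the brightest) under 3 ways of processing. The share climbs from 8.96% to 38.2% with scaling to the 75th percentile and ends at 21.4% after quantile normalization.

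Other genes of redox and iron metabolism were measured sparsely. Of 99 genes listed, 16 had a probe that could be named and 12 had a kept probe, the 3 members included. In limma 0 of the 12 passed, and 0 had an unadjusted p under 0.05 in the fit without the horse as a block. With that block the brighter GPX1 probe had an unadjusted limma p of 0.036. Of the other 9, 7 had a higher mean after exercise and 3 were higher in all 3 horses, with a median change of 0.23 against 0.04 over all probes and 0.17 in the brightest class. A higher mean was found for 56.9% of all probes and 81.8% of the brightest class, and higher values in all 3 horses for 17.3% and 38.2%. None of the 12 was lower in all 3 horses, a pattern found in 11.5% of all probes and 4.12% of the brightest class. Both counts of higher genes lie near the shares of the brightest class, but of the 9 only SOD2, FTH1 and SLC11A1 lie in it. TXNRD1 and GPX6 lie in class 3, counted from the dimmest. There 47.7% of probes had a higher mean and 8.48% were higher in all 3 horses. Nothing particular to redox genes is read from the counts. No gene of the NRF2 and haem breakdown list, the main transcriptional route to antioxidant enzymes, could be named on the array.

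SOD2, the manganese superoxide dismutase of mitochondria, is the other superoxide-removing enzyme measured. Its 9 probes were all kept, and 8 had a higher mean after exercise, with changes from -0.04 to 0.82 and a median of 0.17. The brightest SOD2 probe read 4.92, 4.55 and 4.88 before and 4.96, 4.82 and 5.07 after exercise in horses 1, 2 and 4. Its change was 0.17 (SE 0.19), with overlapping groups. The highest of the 9 probes, at 0.82, was also among the dimmest of them.

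Among peroxidases, GPX6 had a probe well above background on all arrays, and its value had the opposite sign to that of GPX1, at -0.37 (SE 0.21), with -0.47, -0.71 and 0.06 in horses 1, 2 and 4. GPX3, the secreted plasma glutathione peroxidase, was not well above background on more than 1 of 6 arrays on any of its 6 probes. The 3 genes of the glutathione and thioredoxin systems gave no shared direction. TXN, the thioredoxin that reduces protein disulfides, had 0.11 (SE 0.20), its reductase TXNRD1 had -0.11 (SE 0.31), and MSRB1, a selenium-containing methionine sulfoxide reductase, had 0.23 (SE 0.41).

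The partners of FTL in iron storage had values near its own. FTH1, the heavy chain that oxidises iron as it enters the shell, had 2 probes with changes of 0.23 (SE 0.24) and 0.19. On the brighter FTH1 probe the levels were 7.81, 7.49 and 7.91 before and 7.86, 7.71 and 8.34 after exercise, and the differences within horses were 0.04, 0.23 and 0.43. The order of the horses was thus the reverse of that of FTL. PCBP1, a chaperone that hands iron to ferritin, was higher by 0.41, 0.25 and 0.16 in horses 1, 2 and 4 (limma change 0.27, SE 0.24, adjusted p = 0.999). SLC11A1, a metal transporter of phagosomes, had 0.41 (SE 0.24) with -0.18 in horse 2. LTF, the iron-binding lactoferrin of neutrophil granules, had 0.49 (SE 0.83), with values from -1.16 in horse 4 to 2.25 in horse 2. TFRC, the transferrin receptor, was not well above background on any array, and TF, transferrin, was so on 2 arrays before exercise and none after. NOS2, the inducible nitric oxide synthase and the only listed source of oxidants with a named probe, had none of its 12 probes kept.

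**Figure D4:**
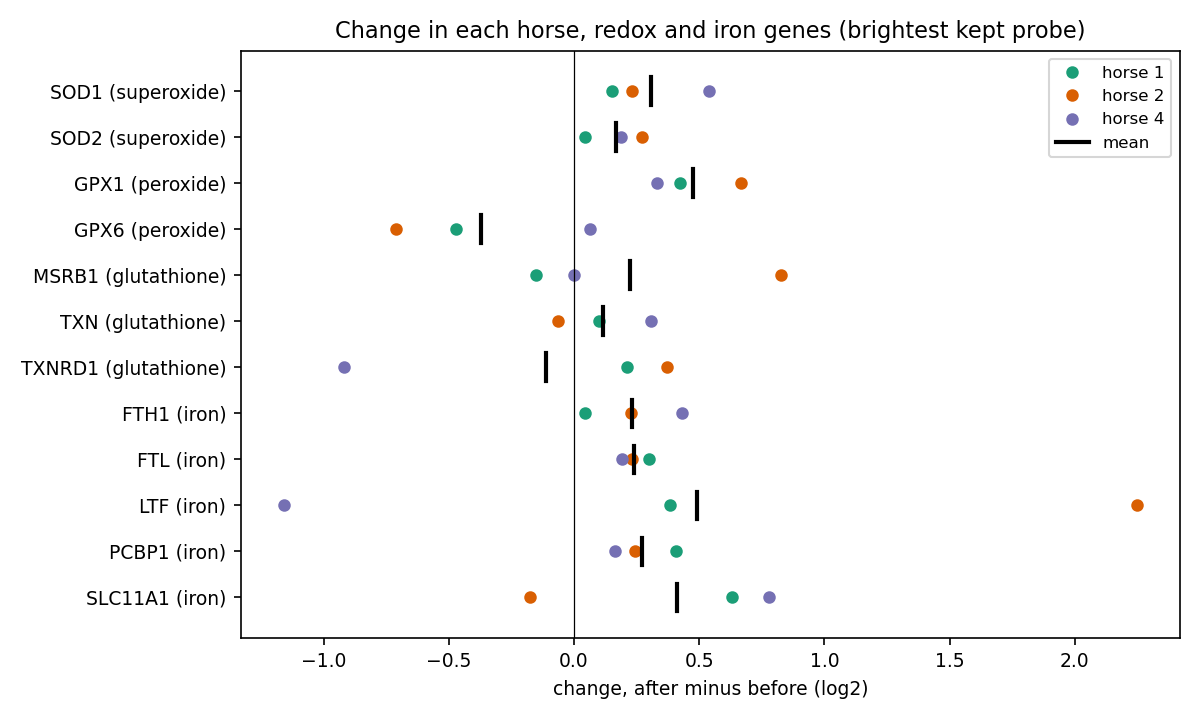
Change after exercise (log2, horizontal axis) in horses 1, 2 and 4 (points) and their mean (bar) for the 12 redox and iron genes with a kept probe, each by its brightest kept probe. SOD1, SOD2, GPX1, FTH1, FTL and PCBP1 have all 3 points above 0, and LTF spans -1.16 to 2.25.

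Haemoglobin transcripts of red cells varied widely between these samples, in an order close to that of GPX1. Of 19 red cell and reticulocyte markers listed, 5 had a named probe and 2, both haemoglobin genes, were kept, while HBZ, SLC4A1 and TFRC were not well above background on any array. HBB, the beta globin, had levels of 5.70, 1.14 and 7.70 before and 6.60, 3.94 and 8.13 after exercise in horses 1, 2 and 4. HBA2, an alpha globin, had 5.35, 1.40 and 7.63 before and 6.27, 3.56 and 7.69 after. The summed level of the 2 globin probes ranged from 2.28 to 8.67 before and from 4.76 to 8.93 after exercise. Both globins were higher after exercise in 3 of 3 horses, and most so in horse 2, as was the brighter GPX1 probe. The dimmer GPX1 probe had differences of 0.130, 0.226 and 0.235 in horses 1, 2 and 4. It thus differed most in horse 4, where the globins differed least (0.42 for HBB and 0.06 for HBA2). HBB had r = 0.96 with GPX1, 0.80 with FTL and 0.41 with SOD1 over the 6 arrays, which come from only 3 horses. Among 555 other named genes HBB ranked 17 for likeness to GPX1, 92 to FTL and 158 to SOD1. Other genes were thus more like each member than HBB was. The part of red cell RNA in the values of the 3 members was not tested.

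Of 15 platelet markers listed, 5 had a named probe and 4 were kept, while ITGB3, an integrin subunit, had no kept probe. Their summed level, in which the bright SELP (P-selectin) probe weighs most, ran from 4.70 to 5.42 before and from 4.75 to 5.24 after exercise. The changes were -0.11 (SE 0.21) for SELP, 0.28 (SE 0.61) for the integrin ITGA2B, 0.22 (SE 1.31) for SPARC and 0.34 (SE 0.80) for VWF, the von Willebrand factor. VWF and ITGA2B were highest in horse 4 at both times. Both were lowest in the horse 2 sample before exercise (0.03 and -0.94), the sample in which the brighter GPX1 probe was lowest too. SELP and SPARC were instead highest in horse 1 at both times and lowest in the horse 2 sample after exercise (4.57 and -3.18). The median of the 4 platelet markers had differences of 0.22, 0.40 and -0.19 in horses 1, 2 and 4. The markers did not share a direction in horse 4, with 0.71 for SPARC, -0.15 for SELP, -0.23 for ITGA2B and -0.38 for VWF. Among leukocyte lists, 3 of 17 neutrophil genes were kept, with a median change of 0.23. Their medians were 0.15, 0.41 and 0.12 in horses 1, 2 and 4. Of these genes MMP9 was higher in all 3 horses, whereas FCAR had -0.09 in horse 1 and LTF had -1.16 in horse 4. The brightest class of probes had medians of 0.05, 0.21 and 0.22 in the same order of horses. The 6 monocyte genes had a median change of 0.28, with medians of 0.47, 0.37 and -0.03 in horses 1, 2 and 4. The medians were 0.15 for 6 NK and cytotoxic genes, 0.08 for 3 T cell genes, 0.13 for 2 eosinophil and basophil genes and -0.11 for 3 B cell genes. In limma 0 of the genes in these lists and 0 of the 2 globins passed. The part of shifts in cell types in the members' values was not tested.

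**Figure D5:**
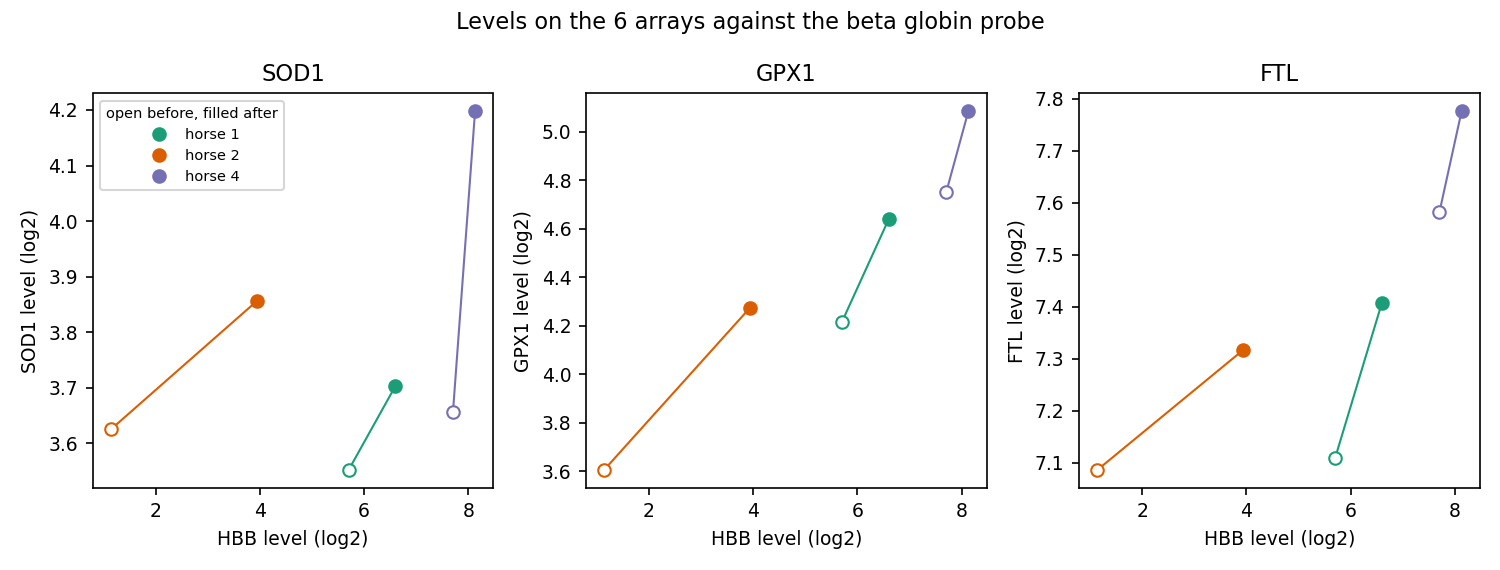
Log2 level of SOD1, GPX1 (brighter probe) and FTL (vertical axes) against the log2 level of HBB (horizontal axes) on the 6 arrays, with open circles before and filled circles after exercise and a line for each horse. GPX1 climbs with HBB across the horses, whereas the SOD1 samples before exercise stay between 3.55 and 3.66 over an HBB range of 1.14 to 7.70.

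Among 555 other named genes, each by its brightest kept probe, the patterns most like that of each member were found by Pearson's r over the 6 arrays, of which each horse supplies 2. For SOD1 these were LY96, which helps TLR4 to bind endotoxin (r = 0.96), PLA2G4A, a cytosolic phospholipase (r = 0.96), and CLTC, the clathrin heavy chain (r = 0.95). LY96 had differences within horses of 0.13, 0.37 and 0.59 in horses 1, 2 and 4. For GPX1 they were NR5A1, a nuclear receptor (r = 0.99), ANXA2, annexin A2 (r = 0.99), and MANF, a protein of the endoplasmic reticulum (r = 0.99). The NR5A1 probe was well above background on 2 of 3 arrays before exercise. For FTL they were MDH2, the mitochondrial malate dehydrogenase (r = 0.99), PCBP1 (r = 0.99) and TIMP1, a metalloproteinase inhibitor (r = 0.99). None of these 9 genes passed in limma (adjusted p = 0.999 each), and their changes ranged from 0.19 for PLA2G4A to 0.49 for TIMP1. They were picked by likeness over the same 6 arrays, so their shared direction is no separate result. GPX1 and FTL had r = 0.92 with each other, and SOD1 had r = 0.63 with GPX1 and 0.76 with FTL. For GPX1 and FTL these values describe mainly the differences between horses, which exceeded those between the times.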

How the data were processed

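Each of the 6 RNA samples went on its own Agilent horse array with Cy3 as the single dye, per the labels. The blood (6 ml, EDTA) had been centrifuged for 10 min at 3000 rpm and 4 °C. The deposited intensity is the processed signal of Feature Extraction 10.10.1.1 (protocol GE1_1100_Jul11), which subtracts background and applies no scaling across arrays, per the file headers. These name EquCab1, and no coordinate is used.

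From each log2 signal the 75th percentile of its array over 43803 non-control spots was subtracted, flagged spots were dropped, and repeated spots were averaged per probe. Probes well above background on at least 3 of 6 arrays were kept (29571 of 43603). Genes with several kept probes are represented by the brightest. Names come from unversioned RefSeq accessions and RefSeq genes of the assembly TB-T2T, which leaves most probes unnamed. The 3 arrays after exercise were set against the 3 before with limma 3.58.1 (lmFit, eBayes; R 4.3.3), two-sided, Benjamini-Hochberg over all probes, threshold 0.05. SE is limma's moderated standard error. The horse is a block in an alternative fit: the titles pair arrays of the same animal, which also deviated together (r of 0.36, 0.40 and 0.23). The scripts were tested on simulated data without horse or slide effects and with planted changes larger than those of the members. That test does not bear on changes of the members' size. The precision is limited by the number of arrays.

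The members and lists were chosen with earlier results of these data known. The genes named are the members, all measured genes of the redox, red cell and platelet lists, and the 3 genes most like each member. The division by brightness was chosen after seeing the data. Normexp (offset 50) used median spot signals.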

Additional observations from a re-analysis of the deposited data

How the results depend on the processing

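Over 22 alternatives, SOD1 kept its direction in all 22 and GPX1 and FTL in 20 each, and none of the 3 passed under any. No SOD1 value after exercise fell below any before it, so fits to the same scaled values could not reverse its direction. For SOD1 only quantile normalization, median scaling and normexp could have done so, and its count is no measure of stability. With slide as a block, and within slide 1 alone, GPX1 had -0.085 and FTL -0.083. With the horse (replicate) block the changes were 0.31, 0.47 and 0.24 for SOD1, GPX1 and FTL, as without it, and that block changed no call. With the 9 arrays or horses left out in turn, SOD1 ran from 0.17 to 0.42, GPX1 from 0.18 to 0.75 and FTL from 0.10 to 0.40. The count of probes called, 0 as reported, was 132 with slide as a block, 117 with horse and slide blocks, 122 within slide 1, 1638 with array weights, and 0 to 595 when arrays or horses were left out. The 595 arose without the horse 4 array before exercise, when exercise and slide cannot be told apart. No redox gene was called under any of these settings. The cause of these shifts was not tested.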
